A study of Homo sapiens with 3 samples.

Results

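Transcripts of 45 genes of the unfolded protein response and of protein folding in the endoplasmic reticulum (ER) were described in CAMA1 cells, an established human breast cancer line labelled as estrogen receptor positive and FGFR1-amplified. The genes were the rows whose symbol equalled 1 of 46 listed symbols, out of 26485 entries in the table. ERO1L, which codes for an ER oxidase, had no row under that symbol. The series holds 1 group of 3 libraries of poly-A RNA, labelled as biological replicates, and every culture had spent 48 h in medium lacking estradiol and was at a passage below 10. All cultures came from the same line and none was given an ER stressor or inhibitor, so the data hold levels and the spread between libraries, and no treatment effect.

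The ER folds secreted and membrane proteins. When unfolded proteins gather there, sensors in its membrane start the unfolded protein response. The kinase and nuclease IRE1 (ERN1) splices the XBP1 messenger, ATF6 is cut to release a transcription factor, and the kinase PERK (EIF2AK3) slows translation while favouring that of ATF4. Their targets include chaperones, oxidoreductases and the machinery of ER-associated degradation, which returns misfolded proteins to the cytosol. In luminal breast epithelium, XBP1 is also known as a gene that responds to estrogen. Counts per gene cannot tell spliced from unspliced XBP1, nor show the activity of any sensor.

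The libraries held 26473939, 26592335 and 30745412 counts in replicates 1, 2 and 3. Luminal markers were present, with all 9 listed genes detected and KRT8 at 2470 ± 140 TPM (SD, n = 3). TPM values are counts divided by gene length and scaled to a fixed total per library. Of 4 endothelial genes none was detected, of 5 immune genes 2 (PTPRC stood at 0.0227 TPM, and LYZ was highest at 6.48), of 3 adipocyte genes 1 and of 5 basal genes 4, none above 8.25 TPM. Of 7 fibroblast genes COL3A1 was detected at 163 ± 23.4 and COL1A1 at 10.5 TPM. The others were not: COL1A2, DCN and LUM had no count in any library, and PDGFRB and FAP stood at 0.0468 and 0.0426 TPM. Of 4 plasma cell genes, a type known for its large ER, MZB1 alone was detected, at 6.84 ± 0.679 TPM. In bulk RNA, fewer cells of a type and less RNA per cell cannot be told apart. All 9 immediate early genes on a list were lowest in replicate 1, their sum being 397, 1477 and 1332 TPM in replicates 1, 2 and 3. Errors below are SD over the 3 libraries. Intervals and limits set by counts describe sampling of reads alone.

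The promoters of these genes are shown first. Known genes of this response make up the list, so high shares of its known stress elements could be foreseen. The shares below describe the list and are not a test. The ER stress response element (ERSE, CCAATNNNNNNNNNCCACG) is the classical site of ATF6 and XBP1, ERSE-II (ATTGG, then N, then CCACG) is a shorter relative, UPRE (TGACGTGG) was described as a site of ATF6 and XBP1, and CARE (TGATGNAA) holds the core of amino acid response elements bound by ATF4. RefSeq gave promoter windows for 41 of the 45 genes, each running from 250 bases before to 50 after a start of transcription on GRCh38.p14. PDIA3, ERN2, DERL1 and DERL3 were not among them. Both strands were searched. ERSE stood in the windows of 7 of the 41 genes (17.1%), against 25 of all 27305 genes with a window (0.0916%) and 0.147% of the 14332 protein-coding ones. ERSE-II stood in 3 of 41 (7.32%), against 19 of all genes (0.0696%) and 0.105% of protein-coding genes. The shorter UPRE and CARE letters were commoner everywhere, in 2 of 41 (4.88%) and 5 of 41 genes (12.2%), against 0.927% and 4.46% of all genes and 1.1% and 3.62% of protein-coding genes. The genes with ERSE, read along the strand of the element with its fixed letters in capitals, were:
HSPA5 (chr9:125241391-125241409): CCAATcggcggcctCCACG
HSP90B1 (chr12:103930216-103930234): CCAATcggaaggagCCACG
HSP90B1 (chr12:103930321-103930339): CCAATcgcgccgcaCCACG
CALR (chr19:12938384-12938402): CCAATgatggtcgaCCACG
CANX (chr5:179698778-179698796): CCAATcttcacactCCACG
PDIA6 (chr2:10812853-10812871): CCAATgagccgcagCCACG
CRELD2 (chr22:49918554-49918572): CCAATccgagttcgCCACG
XBP1 (chr22:28800603-28800621): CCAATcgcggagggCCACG

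HSP90B1 held 2 copies, on opposite strands. The genes with ERSE-II were HYOU1, HERPUD1 and SDF2L1, and HYOU1 again held 2 copies, of which the upstream copy shared bases with a UPRE match:
HYOU1 (chr11:119057380-119057390): ATTGGaCCACG
HYOU1 (chr11:119057274-119057284): ATTGGaCCACG
HERPUD1 (chr16:56932025-56932035): ATTGGgCCACG
SDF2L1 (chr22:21642114-21642124): ATTGGtCCACG

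Matches to CARE lay upstream of ASNS, CHAC1, PPP1R15B and HERPUD1, and just after an alternative start of CREB3L2. The second UPRE match was in DNAJC10. Windows were also found for 85 further genes of the ER and of the stress response. Of these, SERP1 was the sole holder of ERSE, none held ERSE-II, 8 held UPRE and 4 held CARE. The UPRE share was thus larger there than the 2 of 41 above, and the CARE share smaller than the 5 of 41. A match describes the letters alone, and binding was not measured here. Whole windows are given for 4 genes that recur below, in the direction of transcription, with matches in capitals. In HYOU1 the ERSE-II letters lie on the other strand and so read as their reverse complement, the first run of capitals being UPRE and ERSE-II together:
HSPA5 (chr9:125241294-125241593, minus strand): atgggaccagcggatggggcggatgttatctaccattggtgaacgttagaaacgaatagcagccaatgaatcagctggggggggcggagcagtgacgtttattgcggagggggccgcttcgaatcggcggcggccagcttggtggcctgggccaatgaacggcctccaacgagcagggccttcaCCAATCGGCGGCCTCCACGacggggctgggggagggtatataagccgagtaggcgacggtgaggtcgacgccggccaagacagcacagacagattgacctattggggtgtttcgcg
XBP1 (chr22:28800520-28800819, minus strand): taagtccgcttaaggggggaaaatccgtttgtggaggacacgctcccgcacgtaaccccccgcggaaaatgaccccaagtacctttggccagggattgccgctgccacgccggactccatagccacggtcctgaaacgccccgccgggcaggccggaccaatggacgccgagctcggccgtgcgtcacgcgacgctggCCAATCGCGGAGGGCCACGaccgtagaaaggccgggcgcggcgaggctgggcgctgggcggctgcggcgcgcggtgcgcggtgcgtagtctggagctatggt
HYOU1 (chr11:119057156-119057455, minus strand): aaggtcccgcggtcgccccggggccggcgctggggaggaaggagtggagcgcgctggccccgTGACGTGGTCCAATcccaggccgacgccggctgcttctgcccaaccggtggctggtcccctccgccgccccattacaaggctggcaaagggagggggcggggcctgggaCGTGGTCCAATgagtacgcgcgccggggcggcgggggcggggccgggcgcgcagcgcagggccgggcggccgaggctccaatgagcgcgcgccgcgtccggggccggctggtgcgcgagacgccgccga
ASNS (chr7:97872359-97872658, minus strand): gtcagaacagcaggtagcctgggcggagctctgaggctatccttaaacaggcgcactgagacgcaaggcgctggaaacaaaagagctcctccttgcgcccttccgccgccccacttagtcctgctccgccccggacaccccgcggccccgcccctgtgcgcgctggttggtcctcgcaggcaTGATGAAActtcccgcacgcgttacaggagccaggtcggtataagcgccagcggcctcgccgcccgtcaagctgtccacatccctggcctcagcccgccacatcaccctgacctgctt

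In HSPA5 the ERSE began 66 bases before the start, in XBP1 52 bases before it, and in CRELD2 80 bases before it. The ASNS window carried its CARE letters 68 bases before the start.

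**Figure D1:**
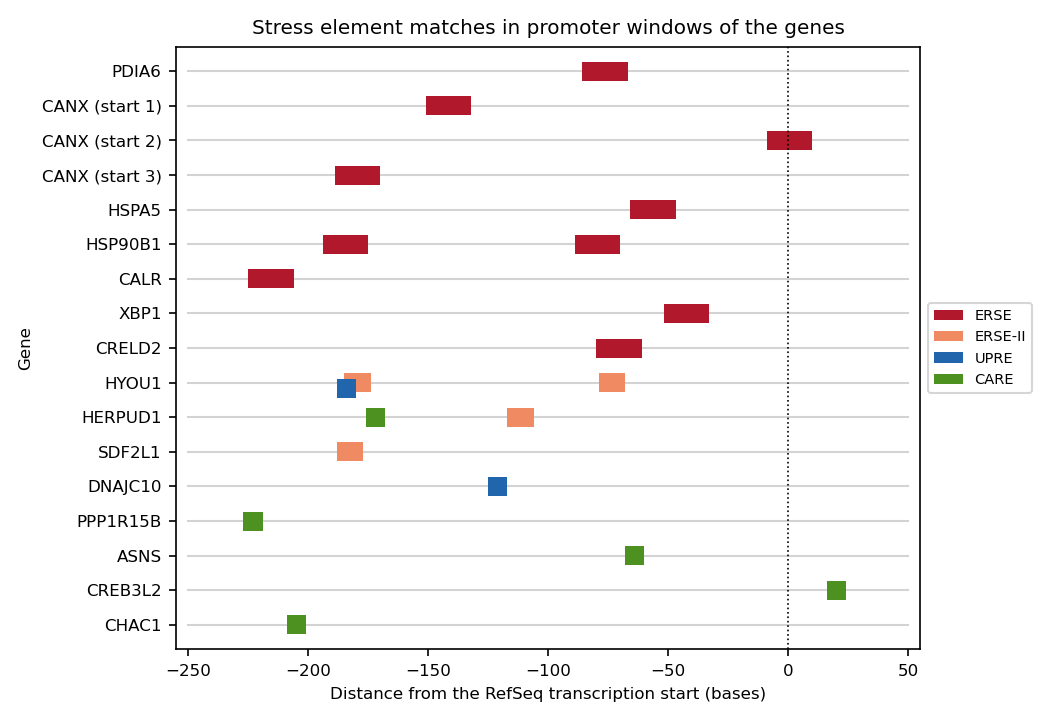
Positions of ERSE, ERSE-II, UPRE and CARE letters in the promoter windows that hold any of them; the x axis gives the distance from the RefSeq start in bases, each row is 1 window, and bars span the matched letters on either strand. ERSE marks 7 genes, CANX appearing once for each of 3 neighbouring starts around the same site, and the UPRE bar of HYOU1 is drawn lower because it overlaps an ERSE-II.

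The genes were abundant as a whole. Of the 45, 42 reached 10 counts in every library and are called detected (93.3%), against 67.3% of 18985 protein-coding genes. Their median was 66.4 TPM, against 8.07 TPM over all protein-coding genes and 25.8 TPM over the detected ones. At 100 TPM or above stood 17 of them, against 10.1% of protein-coding genes. Together they took 0.956, 0.970 and 0.917% of all counts in replicates 1, 2 and 3. The 5 highest, XBP1, CANX, P4HB, PDIA3 and CALR, held 50.6 ± 0.812% of their summed TPM.

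The order was firm in places and loosest in the middle. Among the 41 neighbouring pairs of the 42 detected genes, ranges over libraries were separate in 14 and overlapped in 27. XBP1, CANX, CALR, ATF4 and CREB3L4 each stood clear of the gene next below, whereas P4HB and PDIA3 changed order between libraries. HSPA5 stood above CREB3L4 in replicates 1 and 2 and below it in replicate 3, at 340 against 359 TPM. Near the bottom, SYVN1, EDEM1, CHAC1 and CREB3L1 also stood clear of the gene next below. The range of HSP90B1 overlapped those of SEC61B and HSPA5, yet SEC61B was highest and HSPA5 lowest of them in every library. Every neighbouring pair from SEL1L down to EDEM3 overlapped. This order uses the deposited lengths, and with the exon length on the main chromosome ATF6B would stand far higher, as given below.

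**Figure D2:**
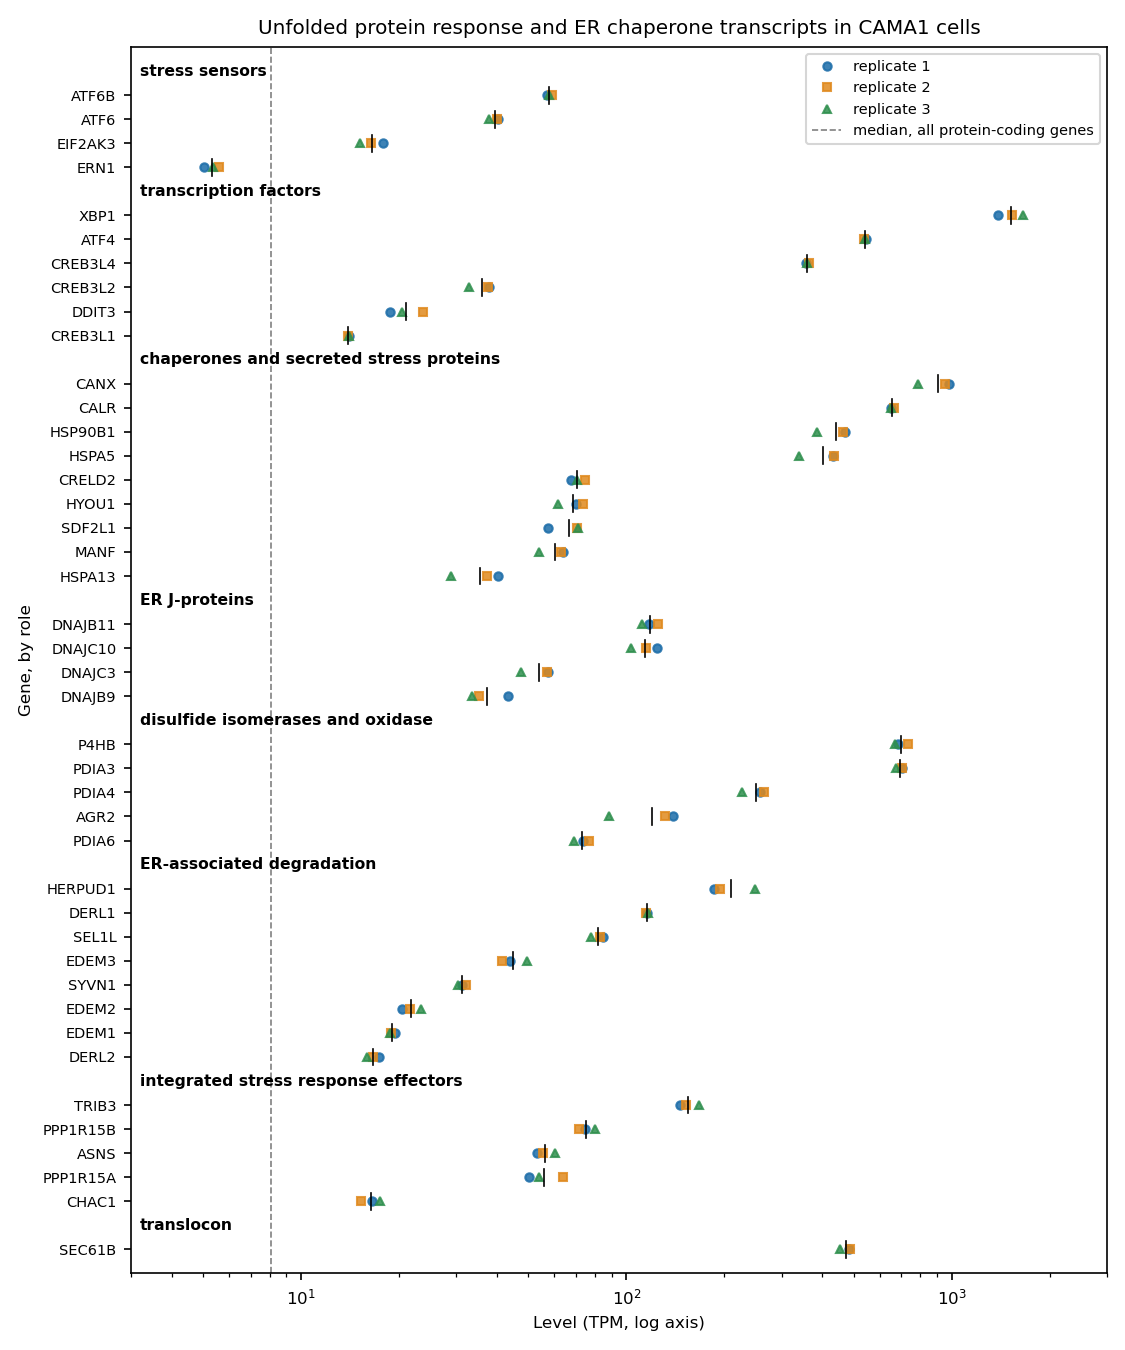
Level of the 42 detected genes in TPM on a log axis, grouped by role; symbols are the 3 libraries, short black lines their mean, and the dashed line the 8.07 TPM median of all protein-coding genes. XBP1 stands rightmost near 1524 TPM and ERN1 is the sole gene left of the dashed line.

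Sensors were the lowest of the role groups, with a median of 16.5 TPM over all 5. ERN1, which codes for IRE1 alpha, had 5.04, 5.60 and 5.38 TPM in replicates 1, 2 and 3, on 200, 224 and 253 counts. ERN2, the related sensor known from mucus-secreting epithelia, had 2, 2 and 1 counts and was not detected, where 3 counts would have given at most 0.0837 TPM. Over all libraries ERN1 had 677 counts and ERN2 5 counts, a ratio of 122 per length with a 95% exact binomial interval of 52.2 to 378. EIF2AK3, which codes for PERK, had 17.9, 16.4 and 15.2 TPM in replicates 1, 2 and 3. It stood above ERN1 in every library, by 1.62 ± 0.17 on the log2 scale, a ratio of 3.08. ATF6 had 40.4, 39.9 and 37.8 TPM, above EIF2AK3 and ERN1 in every library.

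ATF6B, the relative of ATF6, had 56.8, 59.0 and 57.7 TPM in replicates 1, 2 and 3. The log2 ratio of ATF6 over ATF6B was −0.55 ± 0.06. ATF6B lies in the major histocompatibility region of chromosome 6 (32115268 to 32128240 on hg38), and its deposited length of 10464 bases adds up 4 sequences, alternate versions of that region included. With the 2616 bases of the main chromosome, a choice made after seeing the data, its level was 225 TPM and the log2 ratio −2.55.

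Among detected genes, transcription factors spanned the widest range of the role groups, from 14.0 to 1524 TPM. XBP1 (chromosome 22, 28794560 to 28800572) had 1387, 1527 and 1658 TPM in replicates 1, 2 and 3 and ranked 62 among protein-coding genes. Replicate 3 was highest, and the coefficient of variation over the libraries was 8.88%. ATF4, whose translation rises when PERK is active, had 545, 539 and 541 TPM, a mean of 542 with an SD of 3.39. The log2 ratio of XBP1 over ATF4 was 1.49 ± 0.13, a ratio of 2.81.

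DDIT3 codes for CHOP, a factor downstream of ATF4 that is tied to cell death under lasting stress. It had 18.8, 23.6 and 20.5 TPM in replicates 1, 2 and 3. Its log2 ratio over ATF4 was −4.70 ± 0.18, and its exons overlap those of MARS on the other strand. DDIT3 thus stood far below ATF4, though above the 8.07 TPM median of all protein-coding genes.

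The CREB3L genes code for membrane-bound factors that are released by cleavage, as ATF6 is. CREB3L4 had 356, 364 and 359 TPM in replicates 1, 2 and 3, near the level of HSPA5. CREB3L2 had 37.8, 37.5 and 32.8 TPM, and CREB3L1, known from collagen-secreting cells, 14.0, 13.9 and 14.0 TPM. CREB3L4 exceeded CREB3L2 by 3.32 ± 0.11 on the log2 scale, a ratio of 9.99. Exons of CREB3L4 overlap JTB and SLC39A1 on the other strand, and its counts were partly fractional.

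All 9 chaperone and secreted stress protein genes were detected, with a median of 70.7 TPM. CANX and CALR, the membrane-bound and soluble lectin chaperones of glycoproteins, led them. CANX had 982, 954 and 785 TPM in replicates 1, 2 and 3, and CALR 650, 662 and 651 TPM. The log2 ratio of CALR over CANX was −0.46 ± 0.17 and was nearest to 0 in replicate 3, where CANX was lowest. HSPA5 codes for BiP, the HSP70 chaperone of the ER that also holds the sensors inactive. HSPA5 (chromosome 9, 125234848 to 125241387) had 432, 436 and 340 TPM, and the HSP90 chaperone gene HSP90B1 468, 465 and 386 TPM. Replicate 3 was lowest for both, and the log2 ratio of HSPA5 over HSP90B1 was −0.13 ± 0.05.

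The other chaperone genes lay far below HSPA5. HYOU1, an exchange factor for BiP, had 70.1, 73.7 and 61.6 TPM in replicates 1, 2 and 3. HSPA13, an HSP70-like protein gene, had 40.2, 37.2 and 28.8 TPM. Both were lowest in replicate 3. Of the small stress-induced genes, CRELD2 stood at 70.7 ± 3.53, SDF2L1 at 66.4 ± 7.81 and MANF, a secreted factor, at 60.3 ± 5.41 TPM.

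J-proteins deliver substrates to BiP and drive its ATPase, and their 4 genes had a median of 84.0 TPM. DNAJB11 had 117, 125 and 112 TPM in replicates 1, 2 and 3, and DNAJC10, which also reduces disulfides, 124, 115 and 103 TPM. DNAJC3, known as an inhibitor of PERK too, had 57.5, 56.8 and 47.5 TPM, and DNAJB9, a repressor of IRE1, 43.2, 35.3 and 33.6 TPM. Replicate 3 was the lowest library for all 4.

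Disulfide isomerases form and shuffle the disulfide bonds of client proteins. P4HB had 686, 736 and 667 TPM in replicates 1, 2 and 3, and PDIA3, the partner of the lectin chaperones, 705, 703 and 675 TPM. The log2 ratio of PDIA3 over P4HB was −0.00 ± 0.06 and changed sign between libraries. PDIA4 had 257, 265 and 226 TPM and PDIA6 73.7, 76.8 and 69.2 TPM, a log2 ratio of PDIA6 over PDIA4 of −1.77 ± 0.05. The oxidase that recharges these enzymes is listed in the table as ERO1A, the current symbol of ERO1L, at 15.6 ± 1.36 TPM; it is not counted among the 45 genes.

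AGR2 and AGR3 are neighbours on chromosome 7 and code for isomerase-like proteins of secretory epithelia, both known from estrogen receptor positive breast cancer. AGR2 (16792640 to 16805114) had 139, 131 and 88.3 TPM in replicates 1, 2 and 3, on 1356, 1286 and 1019 counts. AGR3 (16859406 to 16881989) had no count in any library, which allows up to 0.404 TPM at 3 counts in a library. AGR2 was at least 259-fold higher than AGR3, the bound being set at 3 counts of AGR3 per library and taken in the library where it was lowest. AGR2 was lowest in replicate 3, with a coefficient of variation of 22.9%, the largest of the detected genes.

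Of the genes of ER-associated degradation 8 of 9 were detected, with a median of 31.2 TPM. Among the role groups only the sensors had a lower median, and that of all protein-coding genes was 8.07 TPM. HERPUD1, which helps assemble the degradation complex, had 186, 193 and 248 TPM in replicates 1, 2 and 3 and stood apart in replicate 3. SEL1L and SYVN1, the scaffold and the ubiquitin ligase of the central complex, stood at 81.8 ± 3.69 and 31.2 ± 0.815 TPM. EDEM genes code for proteins that mark glycoproteins for removal: EDEM3 stood at 44.8 ± 4.19, EDEM2 at 21.8 ± 1.49 and EDEM1 at 19.0 ± 0.345 TPM. Among the derlin genes, DERL1 had 115, 115 and 117 TPM, DERL2 17.4, 16.6 and 16.0 TPM, and DERL3 2, 2 and 0 counts, so DERL3 was not detected. DERL2 over DERL1 gave a log2 ratio of −2.80 ± 0.07.

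Effectors of the integrated stress response, here genes of the ATF4 branch and phosphatase subunits, were all detected, with a median of 56.3 TPM. TRIB3, a pseudokinase gene, had 146, 152 and 167 TPM in replicates 1, 2 and 3. ASNS, asparagine synthetase, had 53.0, 55.4 and 60.5 TPM, and CHAC1, which degrades glutathione, 16.5, 15.3 and 17.5 TPM. All 3 were highest in replicate 3. The phosphatase subunits that reverse the PERK signal differed in their pattern. The inducible PPP1R15A had 50.03, 64.0 and 53.9 TPM, lowest in replicate 1, and the constitutive PPP1R15B 74.5, 71.4 and 80.1 TPM. The log2 ratio of PPP1R15A over PPP1R15B was −0.43 ± 0.24. SEC61B, a subunit of the channel through which new chains enter the ER, had 482, 487 and 454 TPM.

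Ratios within a library were formed for 14 pairs of related function, with 0.01 TPM added. Of the 12 pairs with both genes detected, 11 kept their sign in all 3 libraries, PDIA3 over P4HB being the exception. For these 11, flipping signs in an exact permutation test (two-sided) gave p = 0.25. With 3 libraries a lower p is not possible, and 0.05 was out of reach with or without adjustment. Without division by length, HSPA5 over HSP90B1 turned to 0.34 and EDEM1 over EDEM2, which was −0.20 ± 0.12 on TPM, to 1.33.

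**Figure D3:**
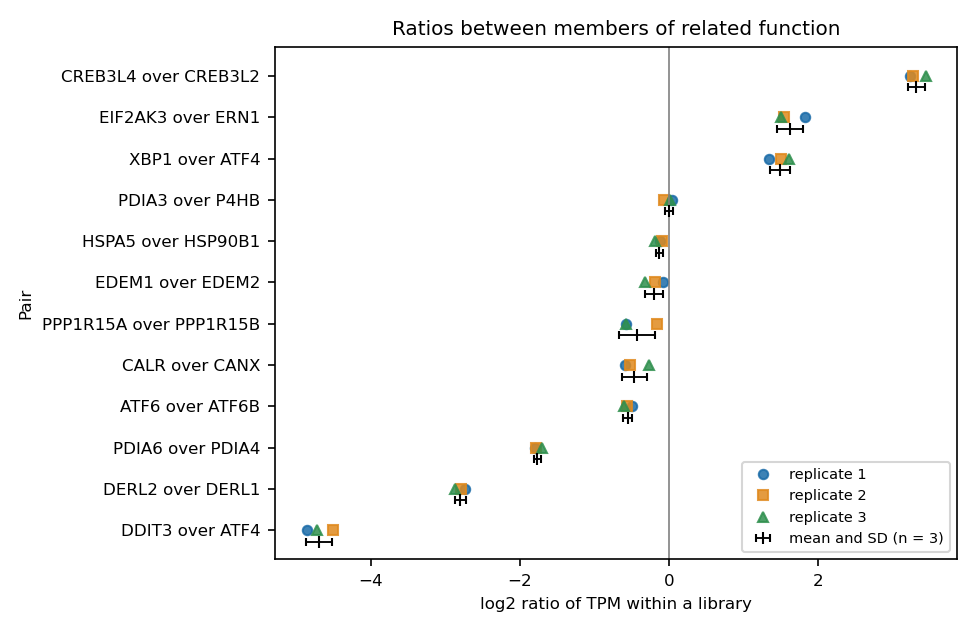
Ratios of TPM within each library for the 12 pairs with both genes detected, on a log2 axis; symbols are libraries and the black bar below them the mean with its SD (n = 3). CREB3L4 over CREB3L2 lies farthest right at 3.32 and DDIT3 over ATF4 farthest left at −4.70, and PDIA3 over P4HB is centred on 0.

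Most of the genes varied between replicates by more than counting error, and none passed the test against the general spread of genes of like abundance. Tested in edgeR against Poisson counting, with adjustment over all 14453 genes tested, 29 of the 42 detected genes were called, against a background of 41.6%. The genes were deeply counted, with a median of 108 CPM (counts scaled to library size, without length) against 28.2 CPM for all genes tested. Among the 2406 genes at or above their median, 73.1% were called, and so were 18 of 21 of these genes. Against the trended negative binomial spread, edgeR called 0 of the 42, with a background of 1.31%, and 3 had an unadjusted p below 0.05, where 6.07% of all genes did. The 3 were AGR2 (adjusted p = 0.0647), HERPUD1 (adjusted p = 0.151) and HSPA13 (adjusted p = 0.630), with negative binomial values from edgeR. The labels do not say how cultures or libraries were handled apart, so these p-values measure the spread of these libraries, which may be technical.

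Fewer genes were called when replicate 3 was left out, here and in the whole table. Without replicate 3, 6 of the 42 genes were called against Poisson counting (DNAJB9, DNAJC10, P4HB, PPP1R15A, SDF2L1 and XBP1). Of all 14607 genes then tested, 1180 were called (8.08%), in place of 6017 (41.6%) with all libraries. The highest library exceeded the lowest by a median of 1.14-fold for these genes, and by 1.14-fold for all genes tested. CANX, which had the smallest Poisson p of the 42, had 1802, 1774 and 1500 CPM in replicates 1, 2 and 3 (edgeR adjusted p = 5.44e-210). XBP1 had 936, 1044 and 1165 CPM (edgeR adjusted p = 3.78e-154), and HSPA5 635, 650 and 521 CPM (edgeR adjusted p = 1.75e-105). Replicate 3 was the lowest library for 20 of the 42 genes (47.6%, against 39.8% of all genes tested), replicate 1 for 18 (42.9%, against 32.8%) and replicate 2 for 4 (9.52%, against 27.4%). XBP1 was highest in the library in which CANX and HSPA5 were lowest.

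Some role groups moved in different directions in replicate 3, and others moved little. Relative to each gene's mean over libraries, the median on the log2 CPM scale was −0.12 for the 9 chaperone genes, of which 6 lay below 0. It was −0.11 for the 4 J-protein genes, all below 0, and −0.05 for the 5 isomerase genes, all below 0. The 5 effectors of the integrated stress response had 0.12, with 4 above 0, the constitutive PPP1R15B among them, and PPP1R15A at −0.01. By contrast, 20 further genes of the integrated stress response had −0.09, with 5 above 0. The replicate 3 median was 0.003 for sensors, 0.03 for transcription factors, 0.03 for degradation genes and −0.03 for SEC61B. For all genes tested it was −0.00. Values in replicate 1 were 0.06 for chaperones, 0.09 for J-proteins, −0.00 for isomerases and −0.11 for effectors, and in replicate 2 they were 0.08, 0.04, 0.07 and −0.03. Of the 7 genes with ERSE, HSPA5, HSP90B1, CANX and PDIA6 were lowest in replicate 3, and XBP1, CALR and CRELD2 were lowest in replicate 1. Among the other lists of further genes, the replicate 3 median was −0.04 for the translocon (5 of 18 genes above 0), −0.05 for N-glycosylation (3 of 13), 0.02 for folding (11 of 21), −0.01 for degradation (7 of 17) and 0.04 for sensor processing (10 of 10). No test beyond the per-gene ones was made of these group shifts.

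**Figure D4:**
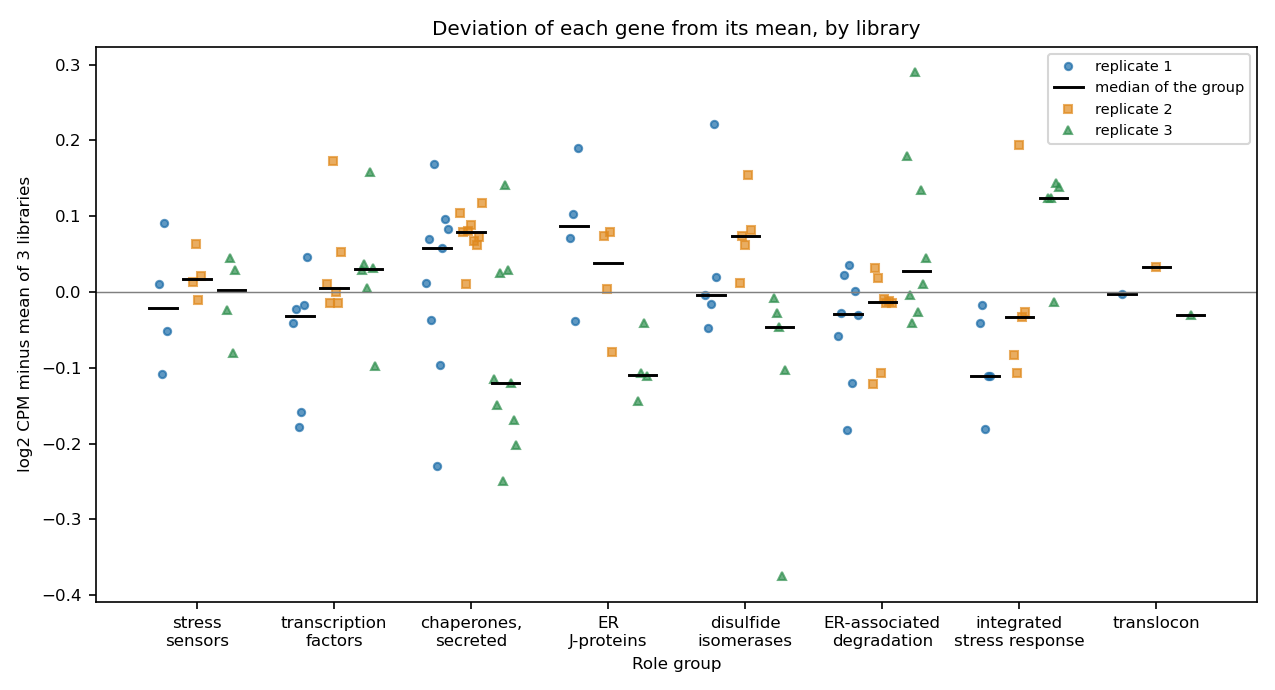
Deviation of each detected gene from its own mean over the 3 libraries, in log2 CPM, by role group; symbols are genes in each library and black lines the group median. In replicate 3 the chaperone, J-protein and isomerase medians lie below 0 and the median of integrated stress response effectors lies at 0.12.

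Other transcripts of the libraries moved as well, and their part in these shifts was not tested. The immediate early gene EGR1 had 19.4, 466 and 487 CPM in replicates 1, 2 and 3 and FOS 4.04, 80.4 and 64.5 CPM, and edgeR's negative binomial test called all 9 genes of that list. PPP1R15A was also lowest in replicate 1, at 44.2, 57.3 and 49.6 CPM (edgeR Poisson adjusted p = 1.21e-09; not called by the negative binomial test). The estrogen-responsive luminal marker TFF1 was lowest in replicate 3, at 25.5, 27.3 and 12.6 CPM (edgeR negative binomial adjusted p = 2.62e-05). The rest of the luminal list did not share one direction. KRT8, KRT18, KRT19, FOXA1 and ESR1 were highest in replicate 3, ESR1 having 75.9, 80.4 and 81.4 CPM. EPCAM, CDH1 and TFF3 were lowest there, TFF3 having 9.58, 10.2 and 9.47 CPM.

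Further genes of the ER and of the stress response were nearly all expressed. All 18 genes of the translocon and signal peptide handling were detected, with a median of 134 TPM, led by SSR2 at 720 ± 66.2, SEC61G at 583 ± 16.6, SPCS2 at 439 ± 34.95 and SEC61A1 at 298 ± 44.8 TPM. All 13 genes of N-glycosylation and the glycoprotein folding cycle were detected too (median 165 TPM), led by the oligosaccharyltransferase genes RPN2 at 352 ± 16.1, RPN1 at 280 ± 22.8, DDOST at 270 ± 10.0 and DAD1 at 245 ± 5.25 TPM. Of 23 further folding genes 21 were detected (median 53.1 TPM), with TMED2 at 327 ± 12.6, the retrieval receptor gene KDELR1 at 293 ± 7.76, DNAJC1 at 293 ± 21.1 and ERP29 at 262 ± 15.6 TPM highest. In these lists edgeR called 15 of 18, 9 of 13 and 13 of 21 tested genes against Poisson counting. The share of all genes tested, not matched for depth, was 41.6%, and the medians of these lists were 120, 121 and 60.9 CPM. None was called against the negative binomial spread, where 1.31% of all genes tested were.

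All 17 further degradation genes with a row were detected (median 93.2 TPM), among them the extraction ATPase gene VCP at 360 ± 15.5 TPM, the lectin gene OS9 at 287 ± 5.43 and MAN1B1 at 178 ± 3.08 TPM. Among 11 genes of sensor processing and signalling, 10 were detected, with TMBIM6, which restrains IRE1, at 854 ± 1.13 TPM and MBTPS1, the protease that cuts ATF6, at 147 ± 3.98 TPM, followed by WFS1 at 133 ± 9.03 and BAK1 at 84.4 ± 0.978 TPM. Of 21 further genes of the integrated stress response 20 were detected (median 44.0 TPM), led by NUPR1 at 291 ± 18.7, DDIT4 at 207 ± 25.8, SLC3A2 at 165 ± 9.73 and EIF2AK1 at 161 ± 7.65 TPM. VEGFA, the sole gene of these 6 lists called by the negative binomial test, had 164, 163 and 258 CPM in replicates 1, 2 and 3 (edgeR adjusted p = 0.00108). It was highest in replicate 3, where 15 of the 20 genes of its list lay below their own mean, SLC7A11 lowest at −0.60 on the log2 CPM scale. Poisson calls numbered 7 of 17 tested genes for degradation, 5 of 10 for sensor processing and 17 of 20 for stress response. The share of all genes tested, not matched for depth, was 41.6%, and degradation and sensor processing lay near it. The degradation list had a median of 143 CPM, and of the 2406 genes at or above 108 CPM, 73.1% were called.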

How the data were processed

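Poly-A RNA was sequenced in 3 libraries of 1 group. The authors deposited expected counts per gene, which need not be whole (83.1 ± 0.243% of non-zero values were whole within 1e-08; SD, n = 3), with a gene length. The submitters' processing notes name featureCounts, Subread, TopHat and the build hg38; their settings are not given in the sources used here. Counts of 7 of the 45 genes were partly fractional (PDIA3, HSP90B1, CREB3L4, PPP1R15B, ASNS, DNAJC3 and ATF6), and exons of 10 overlap another entry, so their reads may be shared with copies or neighbours.

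TPM was computed from deposited counts and lengths (Python 3.11.15, numpy 2.4.6, scipy 1.17.1). A gene was called detected where every library had 10 or more counts, and not detected where none had more than 3. For replicate variation, counts were rounded and analysed in edgeR 4.0.16 (R 4.3.3) with TMM factors of 1.01, 1.00 and 0.990, its filter on low counts, an intercept and a chi-square test of the Poisson deviance, and with trended negative binomial dispersion as an alternative; p-values were Benjamini-Hochberg adjusted at 0.05. Deviations were taken on log2 CPM (prior count 2). Size factors of DESeq2 1.42.0 were an alternative. The fit was also run on simulated Poisson counts and on negative binomial counts of a single fixed dispersion. The outcome of those runs is not reported here. Members and lists were chosen with earlier results of these data known. All 46 listed symbols are accounted for; of each further list the 4 highest genes and any called by the negative binomial test are named, except 1 gene that is not reported here, and any other gene was picked with its values in view. Promoters and gene types come from RefSeq (GRCh38.p14), and their starts can differ from those in the table. Protein sequences were not used here.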

Additional observations from a re-analysis of the deposited data

How the results depend on the processing

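No paired analysis was possible because the series has 1 group. A minimum of 1 count gave 43 detected genes; a minimum of 20 counts, a mean of 1 TPM or leaving out any replicate gave 42. Against the trended negative binomial spread 0 of the 42 genes and 190 of all genes tested (1.31%) were called. Poisson calls without each replicate in turn numbered 6 to 27 of the 42, the lowest without replicate 3. In the same settings 1180 to 5453 of all genes tested were called (8.08 to 37.3%). DESeq2 size factors left 29 of 42 called, against 41.7% of all genes tested, and no filter 28 of 44, against 28.6%. The median of protein-coding genes was 25.8 TPM over detected genes only. Without division by length, the median over the 45 genes was 100.5 CPM; by role it was 28.9 for sensors, 184 for transcription factors, 119.8 for chaperones, 94.5 for J-proteins, 44.1 for degradation and 100.5 CPM for the translocon gene. On that scale 3 log2 ratios turned sign: HSPA5 over HSP90B1 (0.34), PDIA3 over P4HB (0.24) and EDEM1 over EDEM2 (1.33). PDIA3 over P4HB ranged from −0.024 to 0.028 with a replicate left out, turning without replicate 2. Exon lengths on the main chromosome, added after seeing the data, gave 192 TPM for transcription factors and 30.4 TPM for degradation. RefSeq exon lengths and protein features were planned and not run. All deviations by library moved by less than their spread under other size factors or a prior count of 0.5. Depth limits ERN2, DERL3 and AGR3, each at most 2 counts in a library.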
